A study of Mus musculus with 24 samples.

Results

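Neural stem cells (NSCs) were compared with cultured adult astrocytes (AdAC CellC) in 8 of the 24 RNA-seq libraries of the series, 4 in each group, taken by the titles of the samples. Of 49671 genes counted, 45231 lay outside chromosomes X and Y, and 18941 of these passed the filter on low counts and were tested. The question was whether adult astrocytes in culture gain genes of stem cells or only lose genes of astrocytes. Freshly isolated adult astrocytes (AdAC direct, 4 libraries) served as the state before culture. Neonatal astrocytes, cultured (neoAC CellC) or directly isolated (neoAC direct), gave 4 libraries each, as did AGES, astrocytes made from mouse embryonic stem cells.

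The NSCs came from 1 mouse embryonic stem cell line, GSC-5003, derived from C57BL/6N mice. They were bipolar cells selected by brief trypsin treatment and were used at passages 50 to 60 in medium that held FGF and EGF, each at 20 ng/ml, and each replicate was an independent culture from another passage. Adult astrocytes came from C57BL/6J mice of both sexes aged 100 to 140 days. The brains of 2 mice were pooled for each isolation, and cells were sorted on magnetic columns by ACSA-2, an antigen that is the product of Atp1b2. Cells of the AdAC CellC group grew for 7 to 10 days in astrocyte medium on polylysine and laminin, and AdAC direct cells were frozen after sorting. Neonatal astrocytes came from C57BL/6J mice aged 4 to 8 days, with 2 mice for each isolation, by the same antigen, and neoAC CellC also grew for 7 to 10 days, while neoAC direct cells were frozen after sorting. AGES were made from the NSCs by treatment with BMP4. Line, strain, medium and growth factors all differ between NSCs and AdAC CellC and cannot be told apart here.

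Neural stem cells divide under FGF and EGF, and carry intermediate filaments such as nestin and vimentin together with transcription factors of the SOX, PAX, bHLH and POU families. Mature astrocytes rarely divide. They clear glutamate and potassium from the extracellular space, couple through connexins and secrete lipoproteins, and after injury or in culture they take up a reactive state with more filament, matrix and acute phase proteins. Radial glia, the stem cells of the embryonic brain, share transporters and lipid binding proteins with astrocytes, so that several genes mark both cell types.

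The 8 libraries held 30371350 to 35430519 counts on genes, and those of AdAC direct 27904126 to 35440406. Levels are CPM, counts per 1000000 counts of the library, scaled with edgeR's TMM factors, given as mean ± SD of 4 libraries where no library is named. A log2 fold change is a difference of levels on the log2 scale, and a gene counts as higher or lower when its adjusted p in edgeR's quasi-likelihood test lies under 0.05. A group with at most 3 counts in each library was treated as being at the floor, between 0.0786 and 0.117 CPM, which covers counting error only. Libraries of a group correlated with r of at least 0.992 in NSCs and 0.994 in AdAC CellC. AdAC CellC replicate 1 stood apart in part: the ribosomal RNA fragment gene Gm42418 held 1.49% of its counts against 0.230% to 0.359% in the other 3, and the 17 markers of the oligodendrocyte lineage summed to 3996 CPM against 7345 to 9627 CPM. Of the 156 genes named with values here, 44 have exons that overlap a gene on the opposite strand, and their levels are uncertain because it is not known whether strand was used in counting. They are BC023719, Ccn2, Ccnd1, Cxcl16, Fgfr3, Fn1, Fosl1, Glul, Gm42418, Gpr17, Grin2c, H19, Hes5, Hmga1, Hmga2, Hopx, Hoxa3, Hoxa7, Hoxb3, Hoxb3os, Id4, Igf2, Nfia, Olig1, Otx2, P2ry1, Prom1, Rfc2, Rptoros, Slc1a2, Slc7a10, Sox4, Sox5, Sox8, Tagln, Tbx3, Tead2, Thbs1, Tk1, Tnc, Trim71, Vax2os, Vcam1 and Zbtb20.

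Markers of other cells were present in the cultures. The oligodendrocyte lineage markers summed to 16249 to 16964 CPM in AdAC direct and to 1820 to 2162 CPM in NSCs, where Olig1 and Olig2 made up most of the sum and Gpr17, Mog and Sox10 were below 1 CPM or at the floor. Myelin basic protein (Mbp) was at 1822, 3623, 4581 and 3394 CPM in AdAC CellC and at 4.30 ± 0.859 CPM in NSCs. The 15 mural and fibroblast markers, 2 of them collagens of the matrix list, summed to 852 to 1180 CPM in AdAC CellC and 78.2 to 123 CPM in NSCs, the 14 ependymal markers to 344 to 499 and 16.7 to 26.2 CPM, the 15 microglial markers to 105 to 140 and 49.6 to 69.2 CPM, the 12 endothelial markers to 102 to 116 and 10.3 to 17.5 CPM, and the 11 neuronal markers to 95.0 to 128 and 12.7 to 24.3 CPM. Of these lists, 9 microglial, 4 ependymal, 4 neuronal, 3 mural, 2 endothelial and 1 oligodendrocyte lineage markers were at the floor in NSCs, and none was in AdAC CellC. Each sum was higher in every AdAC CellC library than in every NSC library. In AdAC direct the ependymal markers summed to 1985 to 2253 CPM, the mural and fibroblast markers to 448 to 483 CPM and the endothelial markers to 140 to 149 CPM. The microglial markers summed to 69.7 to 78.1 CPM there and the neuronal markers to 21.4 to 24.4 CPM. Oligodendrocyte lineage, ependymal and endothelial sums were thus lower in every AdAC CellC library than in AdAC direct. Microglial, neuronal, and mural and fibroblast sums were higher. The part of other cells in the results below was not tested. In bulk RNA, fewer cells that express a gene and less RNA of it per cell cannot be told apart.

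Most genes differed. In NSCs 6751 genes were higher (35.6% of those tested) and 7907 were lower (41.7%) than in AdAC CellC, together 77.4%, with a median log2 fold change of −0.08 over all genes. In culture, 7339 genes were higher in AdAC CellC than in AdAC direct (38.7%) and 7465 were lower (39.4%), together 78.2%. Both comparisons use the AdAC CellC libraries, so their values stand side by side and no overlap between them is given.

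To follow genes high in NSCs and genes high in astrocytes through culture without using the adult libraries to choose them, 2 sets were taken from NSCs and neoAC direct. The stem-side set held 770 genes at least 4-fold higher in NSCs, and the astrocyte-side set 1403 genes at least 4-fold higher in neoAC direct, each with an adjusted p under 0.05, a higher mean that reached 10 CPM and libraries that did not overlap. Those values chose the genes and are no result. NSCs are a growing culture and neoAC direct cells were frozen after sorting, so that differences of stem cells from astrocytes and of cultured from fresh cells cannot be told apart in these sets. Next to the threshold, Clp1 lay just inside the stem-side set with a log2 fold change of 2.003 and Alg10b just outside it with 1.999, and on the other side Ahi1 lay inside with −2.002 and Rnf24 outside with −1.996.

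Genes of both sets changed in adult culture. Of the stem-side genes, 611 rose in AdAC CellC against AdAC direct (79.4%, against 38.7% of all genes) and 76 fell (9.87%), with a median log2 fold change of 1.94. Of the astrocyte-side genes, 938 fell (66.9%, against 39.4% of all genes) and 296 rose (21.1%), with a median of −1.16. Without the 67 genes of the DNA replication and mitosis lists, 545 of the other 703 stem-side genes rose (77.5%), 75 fell and the median was 1.80. These lists do not hold every cell cycle gene, for example not Ska1, so this split cannot separate genes of cell division from the rest. At a threshold of 2-fold the shares were 80.0% and 69.0%, and at 8-fold they were 70.5% and 65.8%. Stem-side genes with the largest rise in culture were Hmga2, Igfbp3, Ska1, Tubb6, Cdkn2a, Adamts14, Hmmr, Ccnd1, Tnfrsf12a and Cdk1, from a chromatin protein of early development to tubulin, spindle and cell cycle genes.

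**Figure D1:**
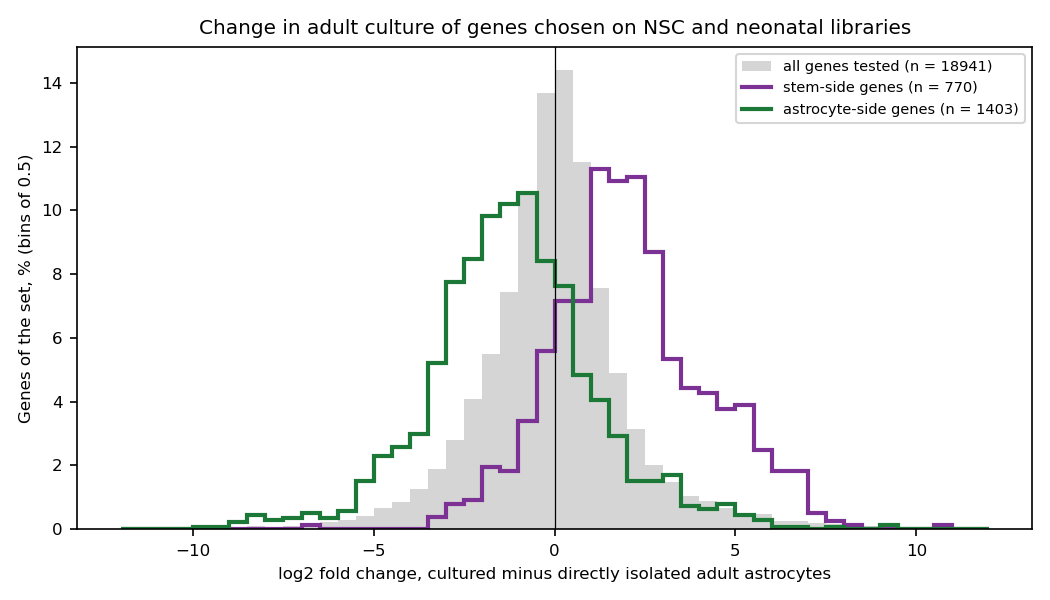
Distribution of the log2 fold change of AdAC CellC against AdAC direct (x axis, bins of 0.5) as a percent of the genes of each set (y axis) for all genes tested (grey), the 770 stem-side genes (purple) and the 1403 astrocyte-side genes (green). The stem-side genes centre on 1.94 and the astrocyte-side genes on −1.16.

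Of the 18941 genes tested, 770 were stem-side and 1403 were astrocyte-side. Of the 34 stem cell transcription factors 1 was stem-side and 10 were astrocyte-side. Of the 31 stem cell surface and cytoskeletal markers 2 were stem-side and 13 were astrocyte-side. As the stem-side set was a small part of all genes, the counts of 1 and 2 are no result about these lists. More members of both lists were astrocyte-side than stem-side. The name stem-side thus means only higher in NSCs than in neoAC direct, and the set is not one of stem cell markers. By contrast, 34 of the 42 DNA replication genes and 33 of the 37 mitosis genes were stem-side. Of the 24 astrocyte transport, channel and junction genes, 21 were astrocyte-side.

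RNA of cell division genes was low in fresh astrocytes, intermediate in culture and high in NSCs. The study reported no proliferation of cultured adult astrocytes in an assay of DNA synthesis with EdU, and RNA levels do not measure division. All 42 DNA replication genes were higher in NSCs than in AdAC CellC (median log2 fold change 1.42, against 35.6% of all genes higher), and 40 rose in culture with none falling (median 2.51). Of the 37 mitosis genes tested, 36 were higher in NSCs (median 1.51), with none lower, and 36 rose in culture (median 5.24). The median of the mean levels of the mitosis genes was 1.56 CPM in AdAC direct, 64.4 CPM in AdAC CellC and 174 CPM in NSCs, and that of the DNA replication genes was 6.25, 36.0 and 82.6 CPM.

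The promoters of 4 such genes are shown because they carry the short motifs that differ in frequency between the lists. The sequences are the 250 bases before the RefSeq start site on GRCm38.p6, 5′ to 3′ on the strand of the gene, and none overlaps an annotated exon. In Mcm6 (chr1:128359706-128359955, minus strand) and Mcm5 (chr8:75109259-75109508, plus strand) capitals mark TTTCCCGC, TTTGGCGC or TTTCGCGC, the letters of E2F-type motifs, on either strand. In Top2a (chr11:99024190-99024439, minus strand) and Mki67 (chr7:135716380-135716629, minus strand) capitals mark TTTGAA or TTCGAA, the letters of the cell cycle homology region, and CCAAT, on either strand.
Mcm6: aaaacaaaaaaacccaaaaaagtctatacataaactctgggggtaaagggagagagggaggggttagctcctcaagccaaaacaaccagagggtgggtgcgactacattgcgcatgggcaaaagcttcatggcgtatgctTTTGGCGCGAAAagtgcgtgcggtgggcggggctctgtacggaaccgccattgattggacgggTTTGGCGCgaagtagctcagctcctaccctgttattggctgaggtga
Mcm5: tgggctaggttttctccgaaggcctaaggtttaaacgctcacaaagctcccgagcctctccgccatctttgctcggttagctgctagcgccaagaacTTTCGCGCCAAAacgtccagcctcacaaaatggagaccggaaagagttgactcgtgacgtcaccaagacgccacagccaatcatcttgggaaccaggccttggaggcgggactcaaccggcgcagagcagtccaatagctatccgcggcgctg
Top2a: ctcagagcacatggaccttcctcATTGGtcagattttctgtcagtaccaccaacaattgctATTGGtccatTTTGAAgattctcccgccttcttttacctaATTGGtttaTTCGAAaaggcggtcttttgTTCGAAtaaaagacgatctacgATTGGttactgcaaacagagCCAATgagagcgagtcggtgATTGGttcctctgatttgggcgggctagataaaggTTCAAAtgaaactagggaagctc
Mki67: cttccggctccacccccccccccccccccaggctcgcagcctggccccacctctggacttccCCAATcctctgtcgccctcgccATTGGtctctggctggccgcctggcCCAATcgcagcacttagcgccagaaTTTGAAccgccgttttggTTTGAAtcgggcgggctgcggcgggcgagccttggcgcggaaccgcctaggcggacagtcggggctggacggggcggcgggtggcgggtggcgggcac

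The Mcm6 window held 3 E2F-type matches and the Mcm5 window 2, in part overlapping each other. Top2a held 4 matches to the cell cycle homology letters and 6 to CCAAT, and Mki67 held 2 and 3. In the 300 bases from 250 before to 50 after the start, 34.1% of the 41 promoters of DNA replication genes (34 genes matched) held an E2F-type match, 2.94% of the 34 promoters of mitosis genes (32 genes matched) and 1.84% of all 32851 promoters. For the cell cycle homology letters the shares were 79.4% of mitosis promoters, 24.4% of DNA replication promoters and 19.2% of all promoters, and for CCAAT they were 76.5%, 51.2% and 37.4%. A match is a description of letters and not evidence of a bound site.

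Mki67, a marker of dividing cells on chromosome 7 from 135689784 to 135716361, was at 936, 878, 944 and 1072 CPM in NSCs, at 261, 224, 234 and 288 CPM in AdAC CellC and at 3.80, 3.52, 4.28 and 4.94 CPM in AdAC direct. No library of one group overlapped another group. Its log2 fold change was 1.93 in NSCs against AdAC CellC (SE 0.15, edgeR adjusted p = 1.81e-11) and 5.92 in AdAC CellC against AdAC direct (SE 0.19, edgeR adjusted p = 6.79e-19). Top2a, a topoisomerase of replicating and mitotic cells, was at 1363, 1599, 1376 and 1294 CPM in NSCs, at 251, 247, 241 and 295 CPM in AdAC CellC and at 3.74 to 4.43 CPM in AdAC direct. The difference between NSCs and AdAC CellC was 2.45 (SE 0.12, edgeR adjusted p = 2.25e-15), the largest among the mitosis genes. Cdk1, the kinase that drives entry into mitosis, was at 254 ± 18.8, 97.7 ± 10.6 and 0.776 ± 0.0874 CPM in the same order, and log2 fold changes were 1.38 and 6.97.

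Subunits of the replicative helicase showed smaller steps. Mcm6 was at 307, 304, 380 and 310 CPM in NSCs, 125, 113, 115 and 131 CPM in AdAC CellC and 14.0 to 16.3 CPM in AdAC direct. Mcm5 was at 294, 229, 355 and 306 CPM, at 86.3, 80.6, 87.2 and 93.4 CPM, and at 5.20 to 6.21 CPM. In both genes the 3 groups were separate in every library, and the step between NSCs and AdAC CellC was 1.43 (SE 0.11, edgeR adjusted p = 6.91e-12) and 1.77 (SE 0.18, edgeR adjusted p = 3.54e-09). Pcna, the sliding clamp of the polymerase, rose in culture by 1.49 and Tk1, a thymidine kinase, by 6.62. Exceptions were few. Ccnb2, a B-type cyclin, was at 45.1 ± 2.71 CPM in NSCs and 40.8 ± 5.18 CPM in AdAC CellC, a difference of 0.15 (95% interval −0.13 to 0.42, edgeR adjusted p = 0.325). Anln, an actin binding protein of cytokinesis that is also expressed in myelinating cells, fell in culture from a mean of 393 CPM to one of 152 CPM. Gins4 and Rfc2 of the DNA replication list had log2 fold changes of −0.07 and 0.04 in culture and were not called.

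**Figure D2:**
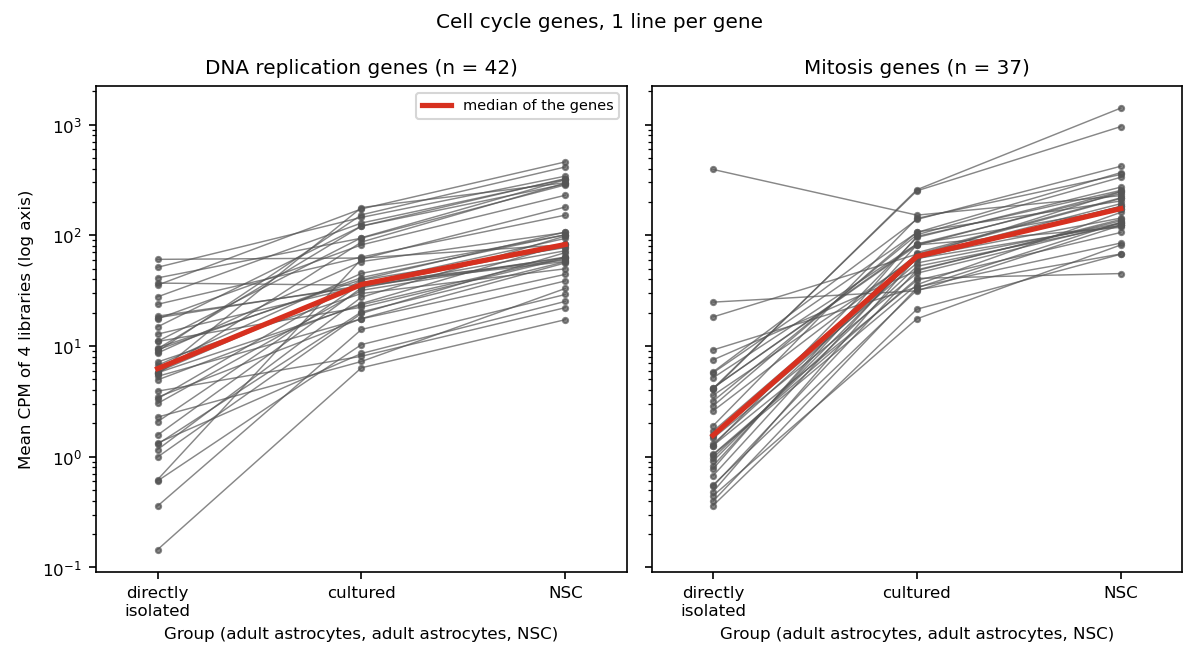
Mean CPM of 4 libraries on a log axis (y axis) in AdAC direct, AdAC CellC and NSCs (x axis), 1 grey line for each of 42 DNA replication genes (left) and 37 mitosis genes (right), with the median in red. The medians climb from 6.25 through 36.0 to 82.6 CPM and from 1.56 through 64.4 to 174 CPM, and Anln is the line that falls in culture.

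Inhibitors of the cell cycle were also expressed in culture. Of the 16 genes of this list 11 rose in AdAC CellC against AdAC direct and 3 fell, next to 38.7% and 39.4% of all genes. In NSCs 6 of 16 were higher and 8 lower than in AdAC CellC, next to 35.6% and 41.7% of all genes. Cdkn1a, the p53 target p21, was at 741, 723, 726 and 619 CPM in AdAC CellC, at 118, 137, 102 and 78.4 CPM in NSCs and at 19.5 ± 2.78 CPM in AdAC direct. Every AdAC CellC library lay above every NSC library, and the log2 fold change of NSCs was −2.69 (SE 0.21, edgeR adjusted p = 2.78e-11). Mdm2 and Ccng1, further p53 targets, had log2 fold changes of −2.24 and −1.45 in NSCs. Cdkn2a, the INK4A and ARF locus, went the other way between these groups, with 57.8, 72.4, 47.2 and 51.5 CPM in NSCs, 18.5 ± 1.38 CPM in AdAC CellC and 0.0996 ± 0.0332 CPM in AdAC direct.

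The markers most often used to name neural stem cells differed in their patterns. Some stood at the same order of level in cultured astrocytes and NSCs. Nes, which encodes nestin and lies on chromosome 3 from 87971078 to 87980451, was at 1340, 1258, 1593 and 1402 CPM in NSCs, at 1287, 1223, 1206 and 1331 CPM in AdAC CellC and at 48.7, 53.2, 55.7 and 51.0 CPM in AdAC direct. The NSC and AdAC CellC libraries overlapped, and both lay far above AdAC direct. The difference between NSCs and AdAC CellC was 0.15 on the log2 scale (95% interval −0.17 to 0.47, edgeR adjusted p = 0.389), and the rise in culture was 4.60 (SE 0.18, edgeR adjusted p = 2.86e-17).

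Tnc, a matrix protein of the stem cell niche, was at 1292, 2798, 1025 and 1378 CPM in NSCs, at 1153, 1161, 1425 and 1446 CPM in AdAC CellC and at 11.1 to 12.5 CPM in AdAC direct. NSC replicate 2 stood above all other libraries, and the remaining NSC and AdAC CellC libraries overlapped. The difference was 0.32 (95% interval −0.15 to 0.80, edgeR adjusted p = 0.199), −0.07 without NSC replicate 2 and called at 0.50 without NSC replicate 3, and the rise in culture was 6.75 (SE 0.30, edgeR adjusted p = 1.15e-15). Cd44, a hyaluronan receptor of the astrocyte receptor and reactive lists and not of the stem cell lists, was at 276 ± 38.8 CPM in NSCs, 283 ± 11.9 CPM in AdAC CellC and 8.91 ± 1.02 CPM in AdAC direct, with a difference between the first groups of −0.04 (95% interval −0.37 to 0.30).

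Other markers rose in culture and differed again from NSCs. Vim, which encodes vimentin, was at 4344, 4305, 3807 and 4602 CPM in AdAC CellC, above the 1910, 2232, 1646 and 1634 CPM of NSCs, and at 312 to 348 CPM in AdAC direct. It was thus lower in every NSC library, with a log2 fold change of −1.20 (SE 0.14, edgeR adjusted p = 2.07e-08). Fabp7, a lipid binding protein of radial glia, was at 701, 755, 1039 and 729 CPM in NSCs, at 262, 381, 359 and 533 CPM in AdAC CellC and at 70.9 to 103 CPM in AdAC direct. It took the intermediate place in culture in every library, with differences of 1.07 (SE 0.20, edgeR adjusted p = 3.67e-05) and 2.24 (SE 0.21, edgeR adjusted p = 6.22e-10). Tead2, a transcription factor of neural progenitors, and Jag1, a Notch ligand, followed the same order, with NSCs above AdAC CellC by 2.02 and 1.41 and AdAC CellC above AdAC direct by 2.81 and 0.90.

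A further group was high in NSCs and fell in cultured astrocytes. Bcan, which encodes the proteoglycan brevican, was at 1236, 1323, 1214 and 1201 CPM in NSCs, at 35.5, 43.5, 46.2 and 56.6 CPM in AdAC CellC and at 2224 to 3009 CPM in AdAC direct. AdAC CellC lay far under both other groups, with differences of 4.77 (SE 0.16, edgeR adjusted p = 3.99e-19) and −5.82 (SE 0.17, edgeR adjusted p = 9.94e-20). Cspg5 and Ptprz1, further chondroitin sulphate carriers of glial progenitors, differed by 3.32 and 2.40 in NSCs against AdAC CellC and by −5.33 and −2.17 in culture. Egfr, the receptor of EGF, was at 252 ± 19.6 CPM in NSCs, 53.6 ± 4.23 CPM in AdAC CellC and 93.2 ± 10.1 CPM in AdAC direct. Over the whole list of 31 surface and cytoskeletal markers, 13 were higher and 15 were lower in NSCs than in AdAC CellC (median 0.15), and 12 rose and 14 fell in culture, next to 35.6%, 41.7%, 38.7% and 39.4% of all genes.

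Some surface markers were low in the NSCs themselves. Prom1, which encodes prominin (CD133), was at 0.196, 0.213, 0.127 and 0.0669 CPM in NSCs, at 18.6, 25.1, 17.6 and 25.9 CPM in AdAC CellC and at 20.5 ± 2.78 CPM in AdAC direct. It was lower in every NSC library, with a log2 fold change of −7.13 (SE 0.23, edgeR adjusted p = 2.65e-19). Cd24a and Cxcr4 were also lower in NSCs than in AdAC CellC, with log2 fold changes of −1.67 and −2.47, and Fut4, an enzyme that makes the SSEA-1 epitope, was at the floor in NSCs and at least 22.6-fold lower.

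Of 34 stem cell transcription factors, 14 were higher (41.2%) and 12 were lower (35.3%) in NSCs than in AdAC CellC, near the 35.6% and 41.7% of all genes, with a median of 0.00. In culture 12 rose (35.3%, against 38.7% of all genes) and 20 fell (58.8%, against 39.4%), with a median of −0.52. Myc, a growth factor-induced regulator, was at 233, 169, 210 and 243 CPM in NSCs, at 85.0, 68.1, 68.8 and 73.0 CPM in AdAC CellC and at 5.54 to 6.70 CPM in AdAC direct. Sox11, a factor of progenitors and young neurons, was at 153, 107, 134 and 138 CPM, at 35.4, 33.3, 35.4 and 41.7 CPM and at 9.62 ± 0.942 CPM. Both lay between the other groups in every AdAC CellC library, with log2 fold changes in culture of 3.58 (SE 0.15, edgeR adjusted p = 1.53e-16) and 1.92 (SE 0.10, edgeR adjusted p = 1.21e-14).

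Sox4, a factor of progenitors, was at 132 ± 25.9 CPM in NSCs, 140 ± 8.70 CPM in AdAC CellC and 22.4 ± 1.89 CPM in AdAC direct, and the difference between the first groups was −0.09 (95% interval −0.32 to 0.14, edgeR adjusted p = 0.466). Rest, a repressor of neuronal genes, had a log2 fold change of −0.40 in NSCs against AdAC CellC and of 1.07 in culture.

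Other factors of neural stem cells had no rise in culture. Sox2, a core factor of neural stem cells that adult astrocytes also express, was at 107, 105, 77.5 and 104 CPM in NSCs, at 105, 119, 103 and 119 CPM in AdAC CellC and at 162, 198, 179 and 150 CPM in AdAC direct. NSC and AdAC CellC libraries overlapped (difference −0.18, 95% interval −0.40 to 0.05, edgeR adjusted p = 0.148; called at −0.26 in a fit of these 2 groups alone), and in culture it fell by 0.63 (SE 0.11, edgeR adjusted p = 1.21e-05). Pax6 differed by 0.29 between NSCs and AdAC CellC, a call lost at 0.15 with scaling by library size alone, and by −0.34 in culture, and Pou3f2 by 0.01 and −1.65. Hes5, a Notch target, was at 1.90 ± 1.21 CPM in NSCs, 1.38 ± 0.520 CPM in AdAC CellC and 95.6 ± 23.4 CPM in AdAC direct, a log2 fold change of −6.10 in culture (SE 0.34, edgeR adjusted p = 2.45e-13).

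Olig2, a bHLH factor of glial progenitors, was at 651, 531, 674 and 643 CPM in NSCs, at 69.3, 99.2, 108 and 116 CPM in AdAC CellC and at 165, 197, 190 and 179 CPM in AdAC direct. AdAC CellC was lowest in every library, and replicate 1, the library with the lowest oligodendrocyte markers, was the lowest of the 4. Log2 fold changes were 2.67 (SE 0.23, edgeR adjusted p = 4.53e-10) and −0.90 (SE 0.22, edgeR adjusted p = 8.99e-04). Olig1, Sox5, Sox8 and Sall3 had the same order of signs, higher in NSCs than in AdAC CellC by 2.67, 2.93, 2.11 and 2.79, with log2 fold changes of −1.41, −2.12, −1.87 and −0.52 in culture.

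**Figure D3:**
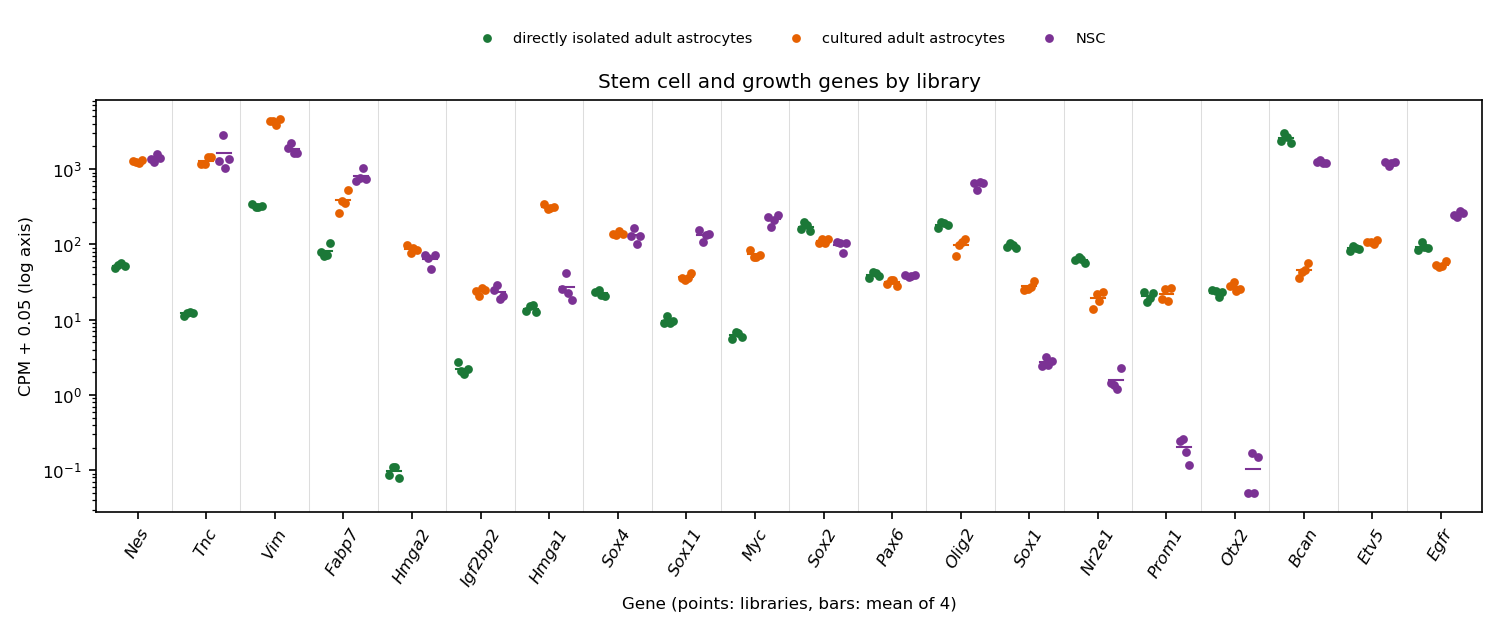
CPM + 0.05 on a log axis (y axis) of 20 stem cell and growth genes of several lists (x axis) in each library of AdAC direct (green), AdAC CellC (orange) and NSCs (purple), with the mean of 4 libraries as a bar. Nes and Tnc stand at like levels in cultured astrocytes and NSCs. Bcan, Etv5 and Olig2 are far higher and Prom1 and Otx2 far lower in NSCs than in cultured astrocytes. Bcan is highest in AdAC direct.

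Among the factors lower in NSCs was Otx2, a factor of the forebrain and midbrain. It was at 0, 0.121, 0 and 0.100 CPM in NSCs and at 27.3 ± 3.60 CPM in AdAC CellC. Nr2e1 (TLX), Sox1 and Lhx2 had log2 fold changes of −3.66, −3.36 and −1.07 in NSCs, with 1.52 ± 0.493 CPM of Nr2e1 and 2.68 ± 0.336 CPM of Sox1, and all 3 fell in culture too.

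Hox genes, which mark hindbrain and spinal cord positions, had the opposite pattern. Of 30 listed genes 16 passed the filter, and as the adult astrocytes were at the floor for most of them, most of these passed only through the groups made from stem cells and had to differ. In NSCs 15 of the 16 were higher than in AdAC CellC (93.8%, next to 35.6% of all genes), a count that the filter fixed in part. Hoxa5, on chromosome 6 from 52201754 to 52204587, was at 63.7, 76.4, 56.9 and 63.2 CPM in NSCs and at 0.0307, 0.0291, 0 and 0.0621 CPM in AdAC CellC. AdAC CellC was at the floor, and NSCs were at least 739-fold higher. The exception was Hoxd1, at 0 in the 4 NSC libraries and at or under the floor in AdAC CellC. In culture 2 of the 16 rose and 2 fell (12.5% each, next to 38.7% and 39.4% of all genes). These calls rest on values near 0. Of the 30 listed genes 24 were at the floor in AdAC CellC and 28 in AdAC direct. All 30 summed to at most 0.798 CPM in an AdAC CellC library and 1.64 CPM in an AdAC direct library.

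Most early developmental RNA regulators and growth genes rose in culture. Of 12 listed genes 10 were tested, and Lin28a and Lin28b did not pass the filter. In culture 7 of the 10 rose and 2 fell (median 2.16), next to 38.7% and 39.4% of all genes. In NSCs 2 were higher and 6 lower than in AdAC CellC (median −4.25, or −3.54 with bounds), next to 35.6% and 41.7%. Hmga2, an architectural chromatin protein of fetal stem cells on chromosome 10 from 120361275 to 120476469, was at 72.3, 66.5, 47.3 and 71.3 CPM in NSCs, at 97.9, 77.1, 88.5 and 84.3 CPM in AdAC CellC and at 0.0355, 0.0618, 0.0594 and 0.0282 CPM in AdAC direct. AdAC direct was at the floor, so that AdAC CellC was at least 933-fold higher. The difference between NSCs and AdAC CellC was −0.43 (95% interval −1.02 to 0.15, edgeR adjusted p = 0.163), although the libraries did not overlap, and in a fit of these 2 groups alone it was −0.52 and was called.

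Igf2bp2, an mRNA binding protein, was at 23.2 ± 4.61, 23.9 ± 2.43 and 2.19 ± 0.365 CPM in NSCs, AdAC CellC and AdAC direct, with a difference of −0.04 between the first groups (95% interval −0.32 to 0.24). Hmga1, the paralog of Hmga2, was at 25.8, 41.3, 22.4 and 18.2 CPM in NSCs, at 341, 291, 307 and 317 CPM in AdAC CellC and at 12.4 to 15.5 CPM in AdAC direct. It was high in cultured adult astrocytes only among these groups, with a log2 fold change of −3.54 in NSCs (SE 0.35, edgeR adjusted p = 5.15e-09). The imprinted genes H19 and Igf2 were also lower in NSCs, with 93.1 ± 38.9 CPM of H19 in AdAC CellC and at most 0.0978 CPM in an NSC library, a fold of at least 968, and with 49.3 ± 10.9 against 0.297 ± 0.0737 CPM of Igf2. Trim71, a LIN28 pathway gene, was higher in NSCs by 3.91, at 5.67 ± 1.44 CPM.

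Of 18 listed pluripotency genes 8 were tested, and Pou5f1, Zfp42, Sall4 and 7 others did not pass. Among the 8, 2 were higher in NSCs and 5 were lower, next to 35.6% and 41.7% of all genes. In culture 3 rose and 4 fell, next to 38.7% and 39.4% of all genes. With 8 genes tested, these counts show no gain of the list in culture. The genes that rose in culture were Klf4, Klf5 and Tbx3, which have roles outside pluripotent cells, by 1.20, 2.71 and 3.25. Esrrb was higher in NSCs by 3.35, at 7.47 ± 0.655 CPM.

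Target genes of FGF and EGF signalling were mostly higher in NSCs, which received both factors, and partly rose in culture. Of 17 genes 12 were higher and 4 lower in NSCs than in AdAC CellC (median 1.77), next to 35.6% and 41.7% of all genes. In culture 11 rose and 5 fell (median 1.08), next to 38.7% and 39.4%. Etv5, an ETS factor induced by FGF, was at 1254, 1098, 1208 and 1232 CPM in NSCs, at 106, 107, 102 and 114 CPM in AdAC CellC and at 82.1 to 96.0 CPM in AdAC direct. NSCs stood apart in every library, by 3.48 (SE 0.17, edgeR adjusted p = 2.23e-15), while the change in culture, 0.28, was not called (95% interval −0.04 to 0.61, edgeR adjusted p = 0.106).

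The feedback inhibitors gave steps in both comparisons. Spry4, a Sprouty inhibitor of receptor signalling, was at 601, 379, 630 and 656 CPM in NSCs, at 46.4, 47.0, 50.1 and 56.9 CPM in AdAC CellC and at 15.9 to 20.8 CPM in AdAC direct. The groups were separate, with differences of 3.50 (SE 0.31, edgeR adjusted p = 9.01e-10) and 1.49 (SE 0.30, edgeR adjusted p = 1.02e-04). The ERK phosphatases Dusp4, Dusp5 and Dusp6 were higher in NSCs by 2.42, 1.42 and 2.12 and rose in culture by 3.43, 6.26 and 1.55. Spry2, Spred1, Etv1 and Etv4 were higher in NSCs too, but had log2 fold changes of −0.86, −0.42, −2.07 and −1.03 in culture. Ccnd1, cyclin D1, was at 1459 ± 95.4 CPM in NSCs, 1805 ± 89.9 CPM in AdAC CellC and 13.9 ± 1.14 CPM in AdAC direct, a rise in culture by 7.02 (SE 0.45, edgeR adjusted p = 4.83e-12). Against NSCs the log2 fold change of −0.31 was not called (95% interval −1.03 to 0.41), although the libraries did not overlap, and in a fit of these 2 groups alone it was −0.39 and was called. Fosl1, an AP-1 subunit, was found at 45.6 ± 7.18 CPM in AdAC CellC and at 0.160 ± 0.0959 CPM in NSCs.

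Of 15 genes of radial glia 6 were higher (40.0%), 6 lower (40.0%) and 3 not called in NSCs against AdAC CellC, near the 35.6% and 41.7% of all genes. In culture 4 rose and 9 fell, next to 38.7% and 39.4%. Hopx and Fam107a, markers of outer radial glia that adult astrocytes also express, had log2 fold changes of −2.33 and −4.41 in culture and were lower still in NSCs, with −1.78 and −5.86. Lifr, the LIF receptor, fell in culture by 1.86 and was higher in NSCs by 2.02.

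Genes of astrocytes fell in culture, some below and some above their level in NSCs. All 24 transport, channel and junction genes fell in AdAC CellC against AdAC direct (median −4.07, next to 39.4% of all genes). Against AdAC CellC, 8 of them were higher and 13 lower in NSCs (median −1.36), next to 35.6% and 41.7% of all genes. Slc1a2, the main glutamate transporter GLT-1, on chromosome 2 from 102658659 to 102790784, was at 233, 122, 217 and 270 CPM in NSCs, at 49.3, 52.3, 45.8 and 52.4 CPM in AdAC CellC and at 5958 to 6277 CPM in AdAC direct. Cultured astrocytes lay under the NSCs in every library, by 2.07 on the log2 scale (SE 0.18, edgeR adjusted p = 9.74e-11). By western blot the study reported that GLT-1 protein was stable across its cell types, and RNA levels do not measure protein.

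Slc1a3, the glutamate transporter GLAST shared by radial glia, was at 1513, 1571, 1299 and 1615 CPM in NSCs, at 163, 210, 216 and 286 CPM in AdAC CellC and at 2905 to 3036 CPM in AdAC direct. It had the same order, with NSCs above AdAC CellC by 2.78 (SE 0.14, edgeR adjusted p = 2.31e-15). Other transporters kept more in culture than in NSCs. The potassium channel Kcnj10 was at 2.61, 3.89, 1.91 and 1.81 CPM in NSCs, at 210, 323, 345 and 382 CPM in AdAC CellC and at 1047 to 1148 CPM in AdAC direct. The water channel Aqp4 was at 1.34 to 2.03 CPM, at 41.6, 68.0, 53.0 and 71.0 CPM and at 539 to 691 CPM. Both were lower in NSCs, with log2 fold changes of −6.94 (SE 0.29, edgeR adjusted p = 2.14e-16) and −5.17 (SE 0.27, edgeR adjusted p = 1.53e-14), and AdAC CellC replicate 1 was the lowest of its group for each.

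The connexin Gjb6 was nearly absent from both, with 0.349 ± 0.139 CPM in NSCs, 0.457 ± 0.273 CPM in AdAC CellC and 381 ± 47.0 CPM in AdAC direct. Its difference between NSCs and AdAC CellC was −0.34 (95% interval −1.24 to 0.55, edgeR adjusted p = 0.475). Gja1, the other main astrocyte connexin, was at 15.5 ± 1.41, 209 ± 13.9 and 1491 CPM on average in the same groups. Atp1b2, whose product was the antigen of the sort, was at 48.9 ± 13.5, 123 ± 17.9 and 2235 ± 99.0 CPM.

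Metabolic and secreted genes fell in number as well, with 25 of 30 lower in culture and 2 higher, or 1 higher without AdAC direct replicate 2 or replicate 3 (median −2.62). In NSCs 18 were lower and 8 higher than in AdAC CellC (median −0.86). Of all genes 39.4% fell and 38.7% rose in culture, and 41.7% were lower and 35.6% higher in NSCs. Aldoc, a glycolytic aldolase of astrocytes, was at 405, 406, 299 and 449 CPM in NSCs, at 50.8, 59.1, 60.7 and 89.3 CPM in AdAC CellC and at 2123 to 2408 CPM in AdAC direct. Sparcl1, a secreted synapse-forming protein, was at 1143, 1021, 1267 and 1206 CPM, at 142, 168, 174 and 237 CPM and at 3921 to 4749 CPM. Both were higher in every NSC library than in any AdAC CellC library, by 2.58 (SE 0.15, edgeR adjusted p = 2.30e-14) and 2.68 (SE 0.15, edgeR adjusted p = 8.25e-15).

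Clu, which encodes the lipoprotein clusterin, was at 8.67, 10.3, 9.39 and 8.80 CPM in NSCs, at 619, 809, 785 and 648 CPM in AdAC CellC and at 2744 to 3374 CPM in AdAC direct. It was lower in every NSC library, with a log2 fold change of −6.27 (SE 0.14, edgeR adjusted p = 2.41e-22). Apoe, the main lipoprotein of astrocytes, was at 67.4 ± 19.8, 271 ± 51.2 and 5783 ± 795 CPM in NSCs, AdAC CellC and AdAC direct. Glul, glutamine synthetase, did not differ past the threshold between NSCs and AdAC CellC, with 534 ± 68.0 and 626 ± 122 CPM (difference −0.23, 95% interval −0.47 to 0.02, edgeR adjusted p = 0.0862), and fell in culture by 3.14. Without NSC replicate 2 the difference was −0.32 and without AdAC CellC replicate 1 it was −0.35, and both were called.

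Among 26 receptors and surface proteins of astrocytes, 22 fell in culture and 4 rose (median −3.05), next to 39.4% and 38.7% of all genes. Against AdAC CellC, 12 were higher (46.2%) and 10 lower (38.5%) in NSCs (median −0.09), next to 35.6% and 41.7% of all genes. Fgfr3, a receptor of fresh astrocytes, was at 43.2 ± 23.7 CPM in NSCs, 50.9 ± 9.75 CPM in AdAC CellC and 1366 ± 125 CPM in AdAC direct, so that both cultures were low. NSC replicate 2 had 78.3 CPM of Fgfr3, and without it the log2 fold change of NSCs against AdAC CellC went from −0.24 to −0.69 and was called. S1pr1, a sphingosine phosphate receptor, was at 8.42 ± 1.85, 31.2 ± 4.01 and 947 ± 53.4 CPM. The 4 receptors that rose in culture were Cd44, Grm5, P2ry1 and Vcam1, by 4.99, 1.94, 0.51 and 0.39, and Vcam1 had a log2 fold change of −4.17 in NSCs.

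Transcription factors and filaments had the median nearest to 0 in culture of these 4 astrocyte lists. Of 23 genes 14 fell and 3 rose in culture (median −0.75), next to 39.4% and 38.7% of all genes. In NSCs 6 were higher (26.1%) and 11 lower (47.8%) than in AdAC CellC (median −0.18), next to 35.6% and 41.7%. Sox9, a factor of glial fate, was at 79.3 ± 4.78 CPM in NSCs, 94.7 ± 11.3 CPM in AdAC CellC and 255 ± 36.2 CPM in AdAC direct. Nfia, a switch factor of gliogenesis, was at 190 ± 7.94, 57.6 ± 2.52 and 96.3 ± 4.39 CPM, and was thus lowest in AdAC CellC. Id4 and Zbtb20, factors of astrocyte lineage, had log2 fold changes of −7.29 and −2.24 in NSCs against AdAC CellC.

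Gfap, the intermediate filament of mature and reactive astrocytes on chromosome 11 from 102887336 to 102900912, was at 36.1, 33.1, 29.0 and 33.3 CPM in NSCs, at 126, 200, 171 and 260 CPM in AdAC CellC and at 161 to 175 CPM in AdAC direct. AdAC CellC overlapped with AdAC direct (difference 0.18, 95% interval −0.11 to 0.47, edgeR adjusted p = 0.239) and lay above all NSC libraries. The log2 fold change of NSCs against AdAC CellC was −2.53 (SE 0.15, edgeR adjusted p = 4.06e-14). S100b, a calcium binding protein of astrocytes, was at 29.6 ± 8.18, 57.9 ± 6.03 and 259 ± 12.1 CPM in NSCs, AdAC CellC and AdAC direct.

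Of the 44 astrocyte genes listed in the study 43 were tested. In culture 35 fell and 6 rose (median −2.33), next to 39.4% and 38.7% of all genes. In NSCs 18 were higher and 18 lower than in AdAC CellC (41.9% each, near the 35.6% and 41.7% of all genes, median −0.04). The list was printed by the study itself and is not independent evidence.

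**Figure D4:**
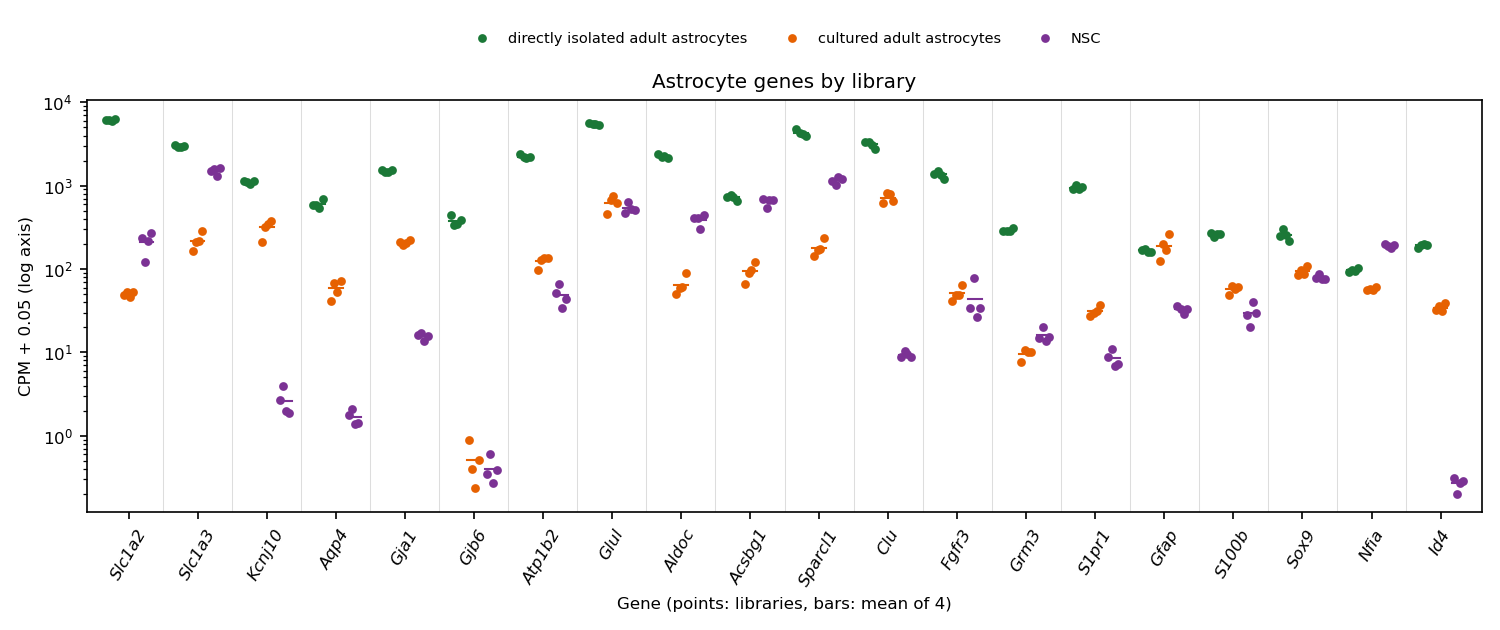
CPM + 0.05 on a log axis (y axis) of 20 astrocyte genes (x axis) in each library of AdAC direct (green), AdAC CellC (orange) and NSCs (purple), with the mean of 4 libraries as a bar. Slc1a2, Slc1a3, Aldoc, Sparcl1 and Nfia are lowest in cultured astrocytes, Kcnj10, Aqp4, Gja1 and Clu are lowest in NSCs, and Gjb6 is near the floor in both.

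Reactive, contractile and matrix genes were high in cultured astrocytes and, by their medians, lower in both NSCs and fresh astrocytes. Of 34 reactive genes tested, none was higher and 32 were lower in NSCs than in AdAC CellC (median −6.97, or −5.91 with bounds). In culture 26 rose and 4 fell (median 3.03). Of all genes 35.6% were higher and 41.7% lower in NSCs, and 38.7% rose and 39.4% fell in culture. Lcn2, an acute phase lipocalin, was at 309, 526, 493 and 388 CPM in AdAC CellC, at 0.334 to 0.828 CPM in NSCs and at 0.178 to 0.463 CPM in AdAC direct. NSCs and AdAC direct were both near 0, and the log2 fold change of NSCs against AdAC CellC was −9.59 (SE 1.02, edgeR adjusted p = 4.36e-08). Osmr, the oncostatin M receptor, was at 44.4, 56.3, 51.0 and 54.4 CPM in AdAC CellC and at the floor in NSCs, at least 535-fold lower. C3 and Serpina3n, a complement component and a protease inhibitor of reactive astrocytes, had log2 fold changes of −7.32 and −7.18 in NSCs and rose in culture by 3.09 and 4.71.

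All 27 stress fibre and YAP target genes tested rose in culture (median 3.54), next to 38.7% of all genes. In NSCs 26 were lower with none higher (median −5.56, or −5.45 with bounds), next to 41.7% and 35.6%. Acta2, smooth muscle actin, was at 916, 799, 713 and 825 CPM in AdAC CellC, at 0.850 to 1.37 CPM in NSCs and at 56.8 to 75.9 CPM in AdAC direct. It was lower in every NSC library, with a log2 fold change of −9.61 (SE 0.34, edgeR adjusted p = 1.83e-17). Tagln, a calponin-related protein of smooth muscle, and the YAP targets Ccn1 and Ccn2 had log2 fold changes of −9.96, −4.93 and −8.88. Lgals1, a galectin, was the member not called, with 1092, 1787, 1101 and 1182 CPM in NSCs and 1296, 1099, 1121 and 1252 CPM in AdAC CellC (difference 0.11, 95% interval −0.25 to 0.48), and 9.94 ± 1.79 CPM in AdAC direct. Acta2 and Tagln are also expressed by mural cells, whose summed markers were 852 to 1180 CPM in AdAC CellC and 448 to 483 CPM in AdAC direct. Of these 15 markers 6 rose and 6 fell in culture (40.0% each, near the 38.7% and 39.4% of all genes, median 0.10). The collagens Col1a1 and Col3a1, which are also on the matrix list, made up most of the sum in AdAC CellC, with 665 to 995 CPM there and 35.5 to 51.5 CPM in AdAC direct. The other 13 markers, a split made after the values were seen, summed to 163 to 207 CPM in AdAC CellC and 413 to 443 CPM in AdAC direct, and were thus lower in every cultured library.

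Of 38 matrix and adhesion genes 35 rose in culture and 2 fell (median 4.00), next to 38.7% and 39.4% of all genes. In NSCs 32 were lower and 4 higher (median −3.92), next to 41.7% and 35.6%. Thbs1, thrombospondin 1, was at 3285, 2647, 2408 and 2479 CPM in AdAC CellC, at 1.50 to 2.31 CPM in NSCs and at 3.40 to 5.25 CPM in AdAC direct. Lox, an enzyme that crosslinks collagen, was at 876, 841, 679 and 732 CPM in AdAC CellC, at 0.234 to 0.456 CPM in NSCs and at 0.386 to 0.705 CPM in AdAC direct. Both were high in cultured astrocytes only, with log2 fold changes of −10.38 (SE 0.26, edgeR adjusted p = 1.95e-21) and −11.04 (SE 0.42, edgeR adjusted p = 1.84e-16) in NSCs. Fn1, fibronectin, had a log2 fold change of −3.95 in NSCs. Serpine2, a protease inhibitor that fell in culture by 1.17, was higher in NSCs by 4.21, at 3508 ± 779 CPM, and Vcan, a matrix proteoglycan, by 1.75.

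A ranking by log2 fold change gave genes outside the lists. Taking genes past the threshold whose groups did not overlap and whose higher mean reached 10 CPM, the first 10 in NSCs were Hoxb3os, Rptoros, Hoxa5, Hoxa2, Hoxa3, Gata4, Hoxa7, Hoxb3, BC023719 and Vax2os, 5 of them Hox genes. The exons of Hoxb3os, Rptoros, Hoxa3, Hoxa7, Hoxb3, BC023719 and Vax2os overlap another gene on the opposite strand. Gata4, a factor of heart and endoderm, was at 17.9 ± 2.09 CPM in NSCs and at least 203-fold lower in AdAC CellC. The first 10 in AdAC CellC were Gdf6, Cdh1, Cldn4, Krt7, Cxcl16, Cldn1, Ahr, Medag, Marco and H19, which include the epithelial cadherin, claudins and a keratin.

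Cdh1, E-cadherin, was at 21.2, 22.1, 56.8 and 23.7 CPM in AdAC CellC, at 0.480 to 1.06 CPM in AdAC direct and at 0 in NSCs. AdAC CellC replicate 3 was highest, and AdAC CellC was at least 322-fold above NSCs. Gdf6, a BMP-type ligand, was at 76.4, 57.6, 50.8 and 53.0 CPM in AdAC CellC and at 0 in NSCs, a fold of at least 618. In culture the first 5 genes that rose were Marco, Ivl, Hmga2, Cldn4 and Serpinb2, and the first 5 that fell were Gjb6, Grin2c, Ucp3, Cldn10 and Slc7a10.

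Cultured neonatal astrocytes were set beside the adult ones. The difference between the comparison of NSCs with AdAC CellC and that with neoAC CellC equals neoAC CellC against AdAC CellC, in which 5411 genes were higher (28.6%) and 6722 were lower (35.5%), together 64.1%. Of the 24 astrocyte transport genes 23 were higher in neoAC CellC and none lower (median 2.57), and of the 26 receptors 20 were higher and 1 lower. Slc1a2 was at 542 CPM in neoAC CellC against 49.9 CPM in AdAC CellC (difference 3.44, SE 0.19, edgeR adjusted p = 6.90e-14), and Aqp4 at 952 against 58.4 CPM. Stem cell factors followed in part, with 21 of 34 higher and 6 lower, among them Nr2e1, at 71.5 against 19.1 CPM. DNA replication genes were lower in neoAC CellC in 36 of 42 cases with none higher, and FGF and EGF response genes in 11 of 17 with none higher. The mitosis genes did not follow, with 5 of 37 higher (13.5%) and 10 lower (27.0%), both under the shares of all genes (median −0.19). In the study's EdU assay, cultured neonatal astrocytes proliferated more than cultured adult ones. Hmga2 was at 0.943 CPM in neoAC CellC against 87.0 CPM in AdAC CellC (difference −6.58, SE 0.39, edgeR adjusted p = 2.38e-12), while Nes was at 965 against 1262 CPM (difference −0.39, SE 0.16, edgeR adjusted p = 0.0335).

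Against fresh adult astrocytes, NSCs had 7210 genes higher (38.1%) and 9118 lower (48.1%), together 86.2%, with a median of −0.28 over all genes, a shift that has to be set against any single value of that comparison.

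**Figure D5:**
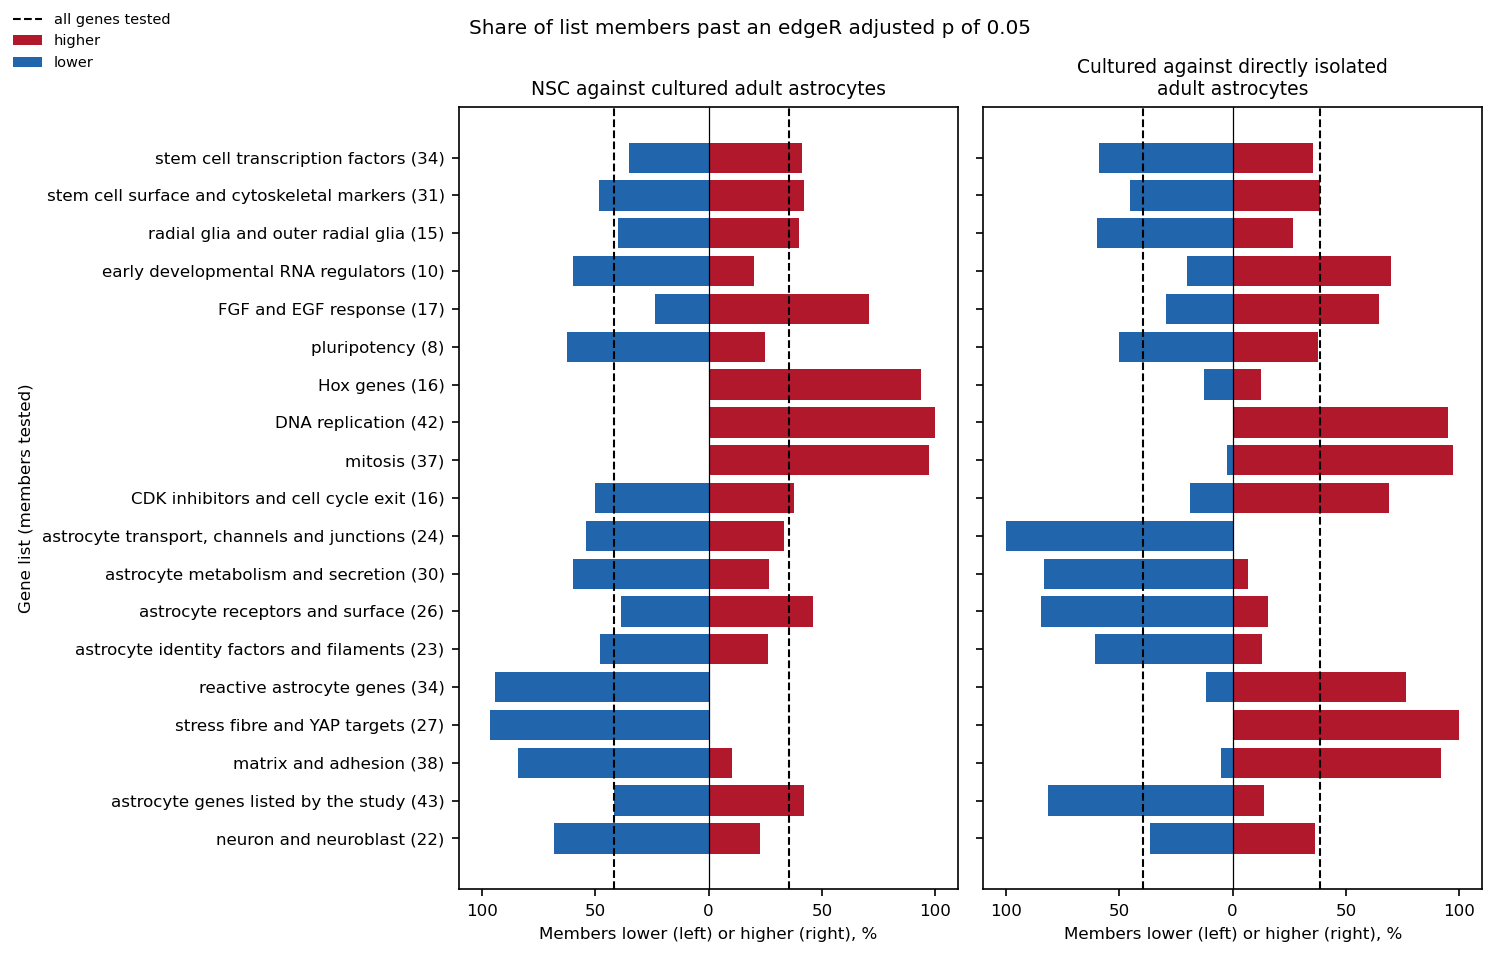
Percent of the tested members of each of 19 gene lists (y axis, number tested in brackets) that were higher (red, right) or lower (blue, left) in NSCs against AdAC CellC (left panel) and in AdAC CellC against AdAC direct (right panel), with dashed lines at the shares of all genes tested (35.6% and 41.7%, 38.7% and 39.4%). DNA replication and mitosis genes are higher in both panels, astrocyte lists fall in culture, and reactive, stress fibre and matrix genes rise in culture and are lower in NSCs.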

How the data were processed

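RNA was sequenced in 24 libraries of 6 groups. The authors deposited raw counts per gene. GRCm38, STAR 2.7.3a, bcl2fastq 2.20 and featureCounts stand in the submitters' processing notes, and use of strand is not given in the sources used here. Members and gene lists were chosen with earlier results of these data known. Groups were taken from sample titles. Counts were fitted with edgeR 4.0.16 (R 4.3.3: filterByExpr, TMM, robust quasi-likelihood test) in 1 model of all 6 groups, with Benjamini-Hochberg adjustment over 19691 genes. The 698 tested genes on X or Y and the 52 without a chromosome in GENCODE vM21 were then left out. CPM are counts per 1000000 of the TMM-scaled library size. Totals of 27904126 to 37997368 counts set the precision at low levels. The p-values rest on the spread between the 4 cultures or isolations of a group, estimated over all 6 groups in 1 model. They thus also carry the spread of groups outside a comparison. The named genes are members of the lists, the first 10 each way between NSCs and AdAC CellC and the first 5 each way in culture, the 5 with the highest CPM in each group, and the 10 stem-side genes that rose most, and some list members are not reported here. Alternatives were DESeq2 1.42.0, other scalings, filters, fits and left-out libraries. On simulated data for NSCs against AdAC CellC (17803 genes), edgeR found 99 of 100 genes changed 2-fold and 100 of 100 changed 4-fold, with 14 false calls. The simulation gave every gene the same spread and changed only these genes, none of them at the lowest levels. In the data 77.4% of genes differed and the spread varied between genes, so these rates do not carry over to the results above.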

Additional observations from a re-analysis of the deposited data

Results flagged for a closer look

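Each group of 4 libraries was searched for a single library far from the other 3, in the levels of the genes named and in the summed levels of the lists. Of 498 groups 37 had one, and chance flags about 1 in 20 groups. In NSC replicate 2 these were Adamts14 (128 CPM), Cxcr4 (3.55 CPM), Fgfr3 (78.3 CPM), Hes5 (3.70 CPM), Lgals1 (1787 CPM), Mdm2 (41.6 CPM), Sox8 (181 CPM), the summed stem cell surface and cytoskeletal markers (15622 CPM) and the summed stress fibre and YAP targets (3050 CPM). In NSC replicate 3 they were Cdk1 (282 CPM), Fabp7 (1039 CPM), Mcm6 (380 CPM), Rfc2 (92.5 CPM), Serpine2 (4668 CPM) and Sox2 (77.5 CPM).

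In AdAC CellC replicate 1, the library with the most Gm42418 (14081 CPM), Fosl1 (56.3 CPM), Klf4 (33.0 CPM), Scd2 (1800 CPM), Serpine2 (164 CPM), Trim71 (0.491 CPM) and the summed astrocyte metabolism and secretion genes (8194 CPM) stood apart. In AdAC CellC replicate 2 it was Col1a1 (595 CPM), Fn1 (1331 CPM) and the summed mural and fibroblast markers (852 CPM), in replicate 3 Cdh1 (56.8 CPM), Cldn4 (54.2 CPM) and Gad1 (1.38 CPM), and in replicate 4 Ccnb2 (48.5 CPM) and Cdkn1a (619 CPM). In AdAC direct, replicate 1 stood apart in Tbx3 (3.65 CPM) and the summed ependymal markers (2253 CPM), replicate 2 in Mog (568 CPM) and Tubb5 (87.5 CPM), and replicate 4 in Adamts14 (0.790 CPM), Mbp (4105 CPM) and Spred1 (167 CPM).

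The difference of NSCs from AdAC CellC was not the same as that from neoAC CellC for 12133 genes, by edgeR's test of neoAC CellC against AdAC CellC, which is the difference between both comparisons.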

How the results depend on the processing

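Where a gene needed 10 counts in all libraries, which tests fewer genes, 8895 genes differed between NSCs and AdAC CellC (4399 higher, 4496 lower), 9483 genes in culture (4539 lower), and 2 astrocyte receptors rose. With a log2 fold change over 1 as a further condition, which is stricter by construction, the numbers were 8684 (2693 higher) between NSCs and AdAC CellC, 9202 in culture (4385 higher, 4817 lower), 4708 higher in NSCs than in AdAC direct, and 5664 in cultured neonatal against cultured adult astrocytes (2947 higher, 2717 lower). Under that condition 9 stem cell transcription factors were higher in NSCs and 11 fell in culture, 8 stem cell surface markers were higher in NSCs and 9 fell, and 2 astrocyte receptors and 1 metabolic gene rose in culture. The 2 astrocyte metabolism genes that rose became 1 with DESeq2's size factors, with no filter, with DESeq2's Wald test and without AdAC direct replicate 2 or 3, a range of 1 to 2 over left-out libraries. The cause was not tested. Leaving out 1 library at a time gave 14384 to 14690 genes between NSCs and AdAC CellC and 78.4% to 79.1% of stem-side genes higher in culture. Scaling by library size alone moved the median of all genes between NSCs and AdAC CellC to −0.23, with 5826 genes higher and 8662 lower. Of 2434 values of 156 named genes under the alternatives, 2399 kept direction and side of the threshold and none turned its sign with a call.

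Samples of the compared groups share replicate numbers, which were not treated as pairs. Deviations from the group means in same-numbered NSC and AdAC CellC libraries correlated at −0.04 to 0.02, and in AdAC CellC and AdAC direct at −0.13 to 0.07. Whether same-numbered AdAC CellC and AdAC direct libraries share an isolation is not stated, and correlations near 0 cannot exclude it. With a replicate block in a fit of the 2 groups, 12895 genes differed between NSCs and AdAC CellC (5820 higher, 7075 lower) and 14496 in culture (7223 higher, 7273 lower). The block on the sets was chosen after seeing the data and gave 82.0% of stem-side genes higher and 68.8% of astrocyte-side genes lower. Genes at or under 3 counts per library allow only bounds.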

Other observations

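Of 22 genes of neurons and neuroblasts tested, 5 were higher and 15 lower in NSCs than in AdAC CellC, next to 35.6% and 41.7% of all genes. The median log2 fold change was −2.55, or −2.25 with genes at the floor set to their bound. In culture 8 rose and 8 fell (36.4% each, near the 38.7% and 39.4% of all genes). Tubb3, a tubulin of neurons, was at 99.6, 160, 175 and 141 CPM in AdAC CellC, at 1.67 to 3.10 CPM in NSCs and at 34.6 to 44.9 CPM in AdAC direct. Stmn2, a stathmin of growing axons, was at 44.6 to 73.5 CPM in AdAC CellC, at most 0.159 CPM in an NSC library and 2.26 to 3.12 CPM in AdAC direct. Both were high in every cultured adult library, with log2 fold changes of −5.86 (SE 0.32, edgeR adjusted p = 7.95e-14) and −9.95 (SE 0.32, edgeR adjusted p = 2.13e-19) in NSCs. Gad1, which makes GABA, was the other way, at 18.2 ± 5.10 CPM in NSCs, 0.701 ± 0.458 CPM in AdAC CellC and 2.87 ± 0.334 CPM in AdAC direct. The summed markers of mature neurons, a list that holds Stmn2 itself, were at 95.0 to 128 CPM in AdAC CellC. Stmn2 made up much of that sum, which is thus not separate from it. Of the 11 markers tested, 5 rose and 4 fell in culture (median 0.40), next to 38.7% and 39.4% of all genes. The part of neurons in these values was not tested.

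Among the genes with the highest CPM in each group, differences were those of mitochondrial transcripts, lipid synthesis, tubulin and iron storage. In NSCs these were mt-Cytb, Scd2, Serpine2, mt-Nd1 and Tubb5. The mitochondrial gene mt-Cytb was at 6309 ± 1457 CPM in NSCs and 2707 ± 147 CPM in AdAC CellC, a log2 fold change of 1.22 (SE 0.18, edgeR adjusted p = 1.46e-06). Scd2, a fatty acid desaturase, was at 6048 ± 1251 CPM in NSCs, 2253 ± 304 CPM in AdAC CellC and 6551 ± 439 CPM in AdAC direct, so that cultured astrocytes were lowest. Tubb5, a tubulin of dividing and young cells, was at 2425 ± 108, 894 ± 54.6 and 80.5 ± 4.69 CPM. In AdAC CellC the genes were Gm42418, Vim, Sparc, Mbp and Fth1. Sparc, a matrix protein, was at 3774 ± 127 CPM in AdAC CellC, 884 ± 224 CPM in NSCs and 667 ± 98.7 CPM in AdAC direct, and Fth1, ferritin heavy chain, at 3201 ± 234, 1486 ± 359 and 2695 ± 142 CPM.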
